A study of Mus musculus with 11 samples.

Results

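The 29 genes described here make, regulate, take up, store and export cholesterol. They were taken as a list of symbols, 18 synthesis enzymes, 4 regulators and 7 genes of uptake, intracellular transport, storage and export, out of 31168 named genes in the count table. All 29 had a mean of at least 1 CPM (counts scaled to a library of 1000000) over the 11 libraries, the level set for describing a gene, and all 29 were among the 15911 genes tested.

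The RNA came from 2 cm of distal ileum, the end of the small intestine, of mice given dextran sodium sulfate, an irritant polysaccharide that injures the gut lining. The study holds 5 libraries from dIEC mice (H2-Ab1 fl/fl, Villin:Cre+), in which Cre made in intestinal epithelial cells acts on floxed H2-Ab1, a class II antigen presentation gene. The other 6 are from WT mice, which carried the same floxed alleles without Cre and received the same treatment. By the design text each library is from a separate mouse. In the design text both groups are written as Villin:Cre-; here each sample's own genotype label was used. H2-Ab1, the targeted gene, had 39.2, 23.1, 17.5, 33.2 and 16.8 CPM in dIEC replicates 1, 3, 5, 6 and 11, all below the 47.5 to 112 CPM of the 6 WT libraries. No label states age, strain, dose or duration. No label names a sort of cells, and in such bulk tissue fewer cells of a type and less RNA per cell cannot be told apart.

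Cells make cholesterol from acetyl-CoA through mevalonate, farnesyl diphosphate, squalene and lanosterol. When membranes of the endoplasmic reticulum are poor in sterol, the escort protein SCAP carries the transcription factor SREBP-2 to the Golgi, where it is cut and freed to switch on the synthesis genes, while INSIG proteins hold SCAP back when sterol is plentiful. Enterocytes also take up cholesterol from the lumen through NPC1L1, esterify it with SOAT2 for chylomicrons, and return sterols to the lumen through the ABCG5 and ABCG8 half-transporters.

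The windows around the starts of the synthesis genes held CCAAT and GC boxes more often than all windows did. SREBP works beside NF-Y, a factor that binds the CCAAT box, and Sp1, which binds GC boxes. RefSeq windows of 300 bases (250 before and 50 after a start, GRCm38.p6) were matched by symbol for 23 of the 29 genes and searched on both strands. Not matched were Fdft1, Fdps, Npc1, Soat2, Sqle and Stard4. CCAAT stood in 14 of the 18 windows of synthesis enzymes (77.8%), 3 of 7 windows of regulators (42.9%) and 3 of 5 windows of transport genes (60%), against 37.4% of all 32851 windows. GGGCGG stood in 15 of 18 (83.3%), 6 of 7 (85.7%) and 1 of 5 (20%), against 35.7% of all windows. The sterol regulatory element form TCACNCCAC stood in 1 window, that of Hmgcs1, and in 1.24% of all windows, and its shorter form CACNCCAC, which lies within it, in 2 synthesis windows and 1 regulator window, against 6.24% of all. All windows came from 27025 genes, not only the 15911 tested here. No comparison with genes of like expression was made, so the shares do not show a trait particular to the synthesis genes. A match describes letters, not a site of binding, and genes with several starts have windows that can overlap.

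The 250 bases before the start are shown for 6 genes, with CCAAT (or ATTGG, its reverse complement) and both sterol element forms, on either strand, in capitals. Hmgcs1 is shown as the only window with the longer element, Hsd17b7 and Msmo1 as synthesis enzymes with 3 CCAAT boxes each, Srebf2 and Insig1 as regulators, and Npc1l1 as the uptake gene.
Hmgcs1, chr13:119690101-119690350, plus strand: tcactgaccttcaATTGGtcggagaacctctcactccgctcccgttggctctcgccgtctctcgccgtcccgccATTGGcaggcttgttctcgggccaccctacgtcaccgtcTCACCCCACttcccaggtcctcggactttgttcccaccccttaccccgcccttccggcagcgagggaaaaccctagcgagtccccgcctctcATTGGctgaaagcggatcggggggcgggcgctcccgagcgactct
Hsd17b7, chr1:169969206-169969455, minus strand: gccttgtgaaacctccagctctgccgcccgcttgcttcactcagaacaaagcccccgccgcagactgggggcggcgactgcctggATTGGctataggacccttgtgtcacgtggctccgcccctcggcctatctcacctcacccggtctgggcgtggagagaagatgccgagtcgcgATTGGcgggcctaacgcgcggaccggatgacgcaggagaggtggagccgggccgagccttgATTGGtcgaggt
Msmo1, chr8:64733579-64733828, minus strand: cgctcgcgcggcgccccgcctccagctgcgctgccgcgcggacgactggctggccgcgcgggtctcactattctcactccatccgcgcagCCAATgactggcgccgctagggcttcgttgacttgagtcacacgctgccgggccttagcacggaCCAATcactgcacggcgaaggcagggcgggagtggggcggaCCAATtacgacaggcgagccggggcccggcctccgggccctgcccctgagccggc
Srebf2, chr15:82147019-82147268, plus strand: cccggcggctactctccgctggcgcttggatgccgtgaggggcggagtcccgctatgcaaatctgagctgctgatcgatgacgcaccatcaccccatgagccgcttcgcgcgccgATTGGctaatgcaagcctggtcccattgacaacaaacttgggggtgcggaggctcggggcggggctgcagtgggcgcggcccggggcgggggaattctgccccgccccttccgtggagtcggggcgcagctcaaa
Insig1, chr5:28071162-28071411, plus strand: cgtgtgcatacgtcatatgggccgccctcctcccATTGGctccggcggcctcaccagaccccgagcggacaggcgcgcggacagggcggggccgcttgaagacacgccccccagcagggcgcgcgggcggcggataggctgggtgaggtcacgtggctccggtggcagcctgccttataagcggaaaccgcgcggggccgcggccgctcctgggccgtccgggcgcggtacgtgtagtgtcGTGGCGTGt
Npc1l1, chr11:6230246-6230495, minus strand: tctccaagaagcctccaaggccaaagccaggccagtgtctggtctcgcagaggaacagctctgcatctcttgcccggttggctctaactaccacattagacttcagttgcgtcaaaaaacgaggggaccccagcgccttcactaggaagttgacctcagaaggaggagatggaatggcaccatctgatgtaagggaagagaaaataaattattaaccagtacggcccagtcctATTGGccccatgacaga
The nearest RefSeq starts of Abcg5 and Abcg8, which face away from each other on chromosome 17, lie 110 bases apart.

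Total counts ran from 6603965 to 9681698 per library, with 22.9 to 37.3% of them on protein-coding genes once Lars2 was set aside, and the 29 genes together held 5112 to 11117 counts. A single gene had between 12 and 1686 counts in a library. A pair of libraries stood apart and touch most values below. WT replicate 8 had the highest sum of 19 enterocyte markers of all 11 libraries, 12271 CPM, against 3036 to 5912 CPM in the remaining 5 of WT. dIEC replicate 1 had 11242 CPM of these together with the lowest sum of proliferation markers (117 CPM, against 166 to 348 CPM in the other 10). The enterocyte sums of the other dIEC libraries were 4529 to 10473 CPM. Mgam, Anpep and Apob, at 2411, 3654 and 2451 CPM, made up most of the sum in WT replicate 8. Single markers can differ from the sum: Alpi was lowest of all 11 libraries in dIEC replicate 1, at 14.2 CPM. Some fold changes of the 29 genes moved by more than 1.5 times when WT replicate 8 or dIEC replicate 1 was left out. They are given without that library, or as a range over single libraries left out.

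Of all 29 genes, 27 had log2 fold changes above 0, dIEC over WT, with TMM scaling (16 with library size alone), and none passed the threshold. The median was 0.19 over the 18 synthesis enzymes and 0.22 over the 11 regulators and transport genes, against -0.0071 over all genes tested, of which 48.8% lay above 0. By edgeR's quasi-likelihood test with Benjamini-Hochberg adjustment over all genes, 0 of the 29 passed an adjusted p of 0.05 (0.00628% of all genes did), with adjusted p from 0.427 to 0.986, and DESeq2 also called 0 (0.0692% of all genes). At an unadjusted p under 0.05 by edgeR 3 lay higher in dIEC (Hsd17b7, Sqle and Soat2), against 4.87% of all genes, and 0 lay lower, against 5.79%. DESeq2 also gave 3 higher at an unadjusted p under 0.05, against 4.91% of all genes. Without WT replicate 8 the same 3 genes passed edgeR's adjusted threshold, where 1.35% of all genes passed as higher and 0.671% as lower. With any other single library left out, 0 of the 29 passed it. Attention fell on WT replicate 8 after its values were seen, so results without it are a description. Without WT replicate 8, 12 of the 29 lay higher with an unadjusted p under 0.05, where 11.2% of all genes did. The number of the 29 that lay higher with an unadjusted p under 0.05 was 7 once dIEC replicate 1 was left out, against 3.15% of all genes, and 7 once dIEC replicate 6 was, against 7.33%. It was 14 without both WT replicate 8 and dIEC replicate 1, a setting chosen after seeing the data, against 9.54% of all genes. In that last fit 0 of the 29 passed the adjusted threshold (0.0433% of all genes did so as higher), and Hsd17b7 and Sqle had edgeR adjusted p = 0.0565 and Soat2 0.0948. With library size alone as the scaling, which moved the median of all genes to -0.22, 16 of the 29 lay above 0 and 27 lay above the median of all genes.

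**Figure D1:**
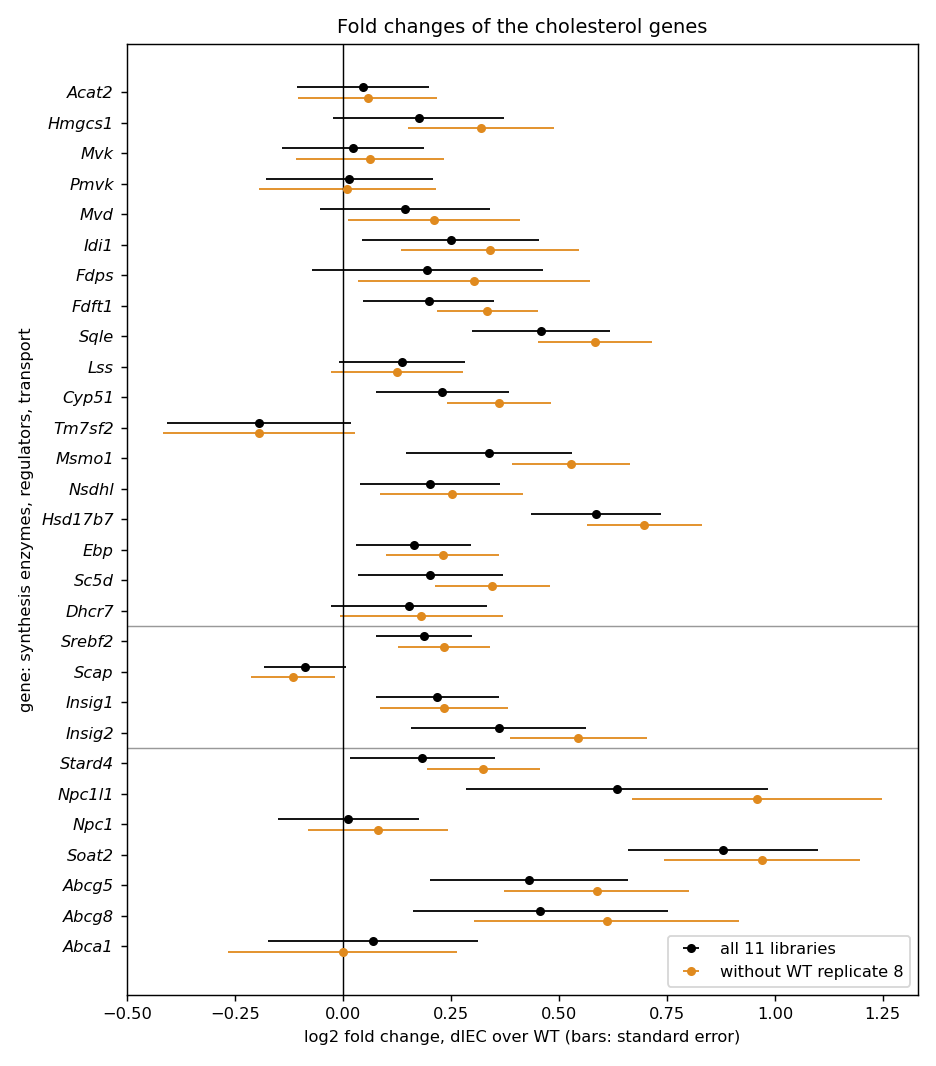
Log2 fold changes, dIEC over WT, of the 29 cholesterol genes with standard errors, from all 11 libraries (black) and without WT replicate 8 (orange). In the fit to all libraries 27 points lie right of 0, and Soat2, at 0.88, lies farthest right.

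Among the synthesis enzymes Hsd17b7 differed most. It encodes a ketosteroid reductase that acts in the removal of methyl groups from the sterol ring and lies on chromosome 1 (169949535 to 169969241, minus strand, GRCm38). It had 18.2, 20.7, 21.2, 16.5 and 14.9 CPM in dIEC replicates 1, 3, 5, 6 and 11, and a lowest, median and highest value of 10.03, 11.2 and 16.9 CPM in WT. All 5 dIEC libraries lay above the WT median and 3 above the highest WT library, which was replicate 8, so the groups overlapped through that library alone. The means were 18.3 ± 2.68 CPM in dIEC (SD, n = 5) and 12.2 ± 2.70 CPM in WT (SD, n = 6), a 1.5-fold difference. The log2 fold change was 0.59 (SE 0.15, 95% interval 0.26 to 0.91, edgeR adjusted p = 0.427). Without WT replicate 8 it was 0.70 (SE 0.13) with edgeR adjusted p = 0.0332. Then every dIEC library lay above every WT library, which follows from the overlap through replicate 8 alone and adds no evidence. This was so for 1 of the 29 genes and for 2.19% of all genes. With all 11 libraries it was so for 0 of the 29 and 0.233% of all genes, and the reverse for 0 of the 29 and 0.333%.

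Sqle, squalene epoxidase, which adds the first oxygen to squalene, had 48.3, 71.9, 60.9, 53.5 and 68.9 CPM in dIEC replicates 1, 3, 5, 6 and 11, against 33.3, 41.6 and 62.8 CPM as the lowest, median and highest of WT. All 5 dIEC libraries exceeded the WT median, and WT replicate 8 exceeded 3 of them. The log2 fold change was 0.46 (SE 0.16, 95% interval 0.12 to 0.80, edgeR adjusted p = 0.427), and 0.58 (SE 0.13, adjusted p = 0.0421) without WT replicate 8. Msmo1, methylsterol monooxygenase, which works in the same demethylation as Hsd17b7, had 30.8, 54.8, 41.5, 42.1 and 43.4 CPM in dIEC, against 23.6, 31.1 and 54.8 CPM as the lowest, median and highest of WT. Its log2 fold change was 0.34 (SE 0.19, interval -0.076 to 0.75, edgeR adjusted p = 0.524) and, without WT replicate 8, 0.53 (SE 0.14, adjusted p = 0.0556).

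**Figure D2:**
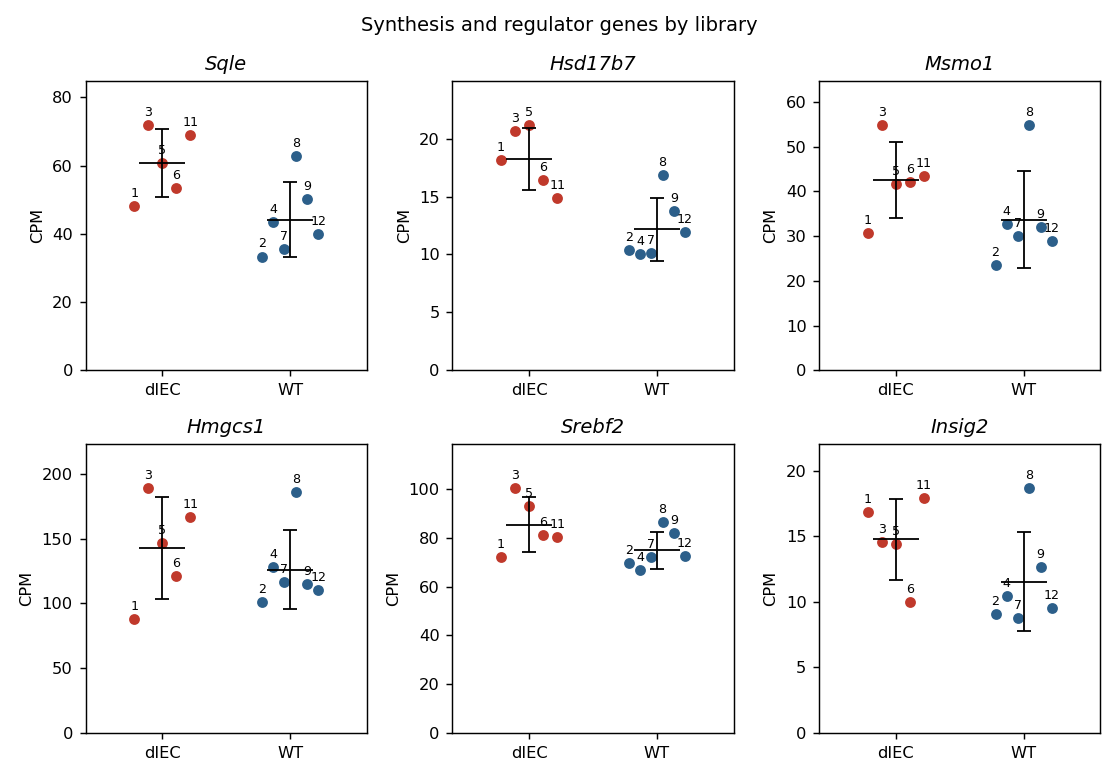
CPM of 6 synthesis and regulator genes in each library, dIEC left and WT right, labelled by replicate, with group means and SD. WT replicate 8 is the highest WT library in all 6 panels, at 62.8 CPM for Sqle and 186 CPM for Hmgcs1.

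Hmgcs1, HMG-CoA synthase, an early enzyme of the mevalonate arm, had the highest level of the 29 genes per exonic length, 29.1 CPM per kb over the 11 libraries. It had 88.0, 189, 147, 121 and 167 CPM in dIEC replicates 1, 3, 5, 6 and 11, against 101, 116 and 186 CPM as the lowest, median and highest of WT. The lowest and the highest of all 11 libraries were both dIEC, replicates 1 and 3. The log2 fold change of 0.18 (SE 0.20, interval -0.25 to 0.60, edgeR adjusted p = 0.754) was within the spread of the libraries. Leaving out WT replicate 8 gave 0.32, and leaving out dIEC replicates 1, 3 and 11 in turn gave 0.31, 0.052 and 0.11, with edgeR adjusted p from 0.295 to 0.949, and 0.45 (adjusted p = 0.0948) without both WT replicate 8 and dIEC replicate 1. Of its exonic length 12.1% overlaps the antisense gene Gm48342, so its level is uncertain. Idi1, isopentenyl diphosphate isomerase, also had its lowest and highest libraries in dIEC, replicates 1 and 6, with 16.2, 41.9, 37.1, 44.5 and 32.7 CPM in dIEC, against 25.3, 27.6 and 37.96 CPM in WT. Its log2 fold change was 0.25 (SE 0.20, edgeR adjusted p = 0.648), 0.43 (SE 0.13, adjusted p = 0.639) without dIEC replicate 1 and 0.14 without dIEC replicate 6. An overlap with Gm48574 on the opposite strand takes up 9.22% of its exonic length.

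Cyp51, lanosterol demethylase, the cytochrome P450 that acts after ring closure, had 42.8, 63.8, 55.2, 42.4 and 53.7 CPM in dIEC, against 36.2, 41.0 and 63.4 CPM as the lowest, median and highest of WT. Every dIEC library lay above the WT median, and the log2 fold change was 0.23 (SE 0.15, interval -0.098 to 0.56, edgeR adjusted p = 0.574). Sc5d, a sterol desaturase of the last steps, had 29.9, 38.2, 29.9, 22.5 and 38.5 CPM in dIEC, against 22.4, 25.8 and 41.0 CPM in WT, with a log2 fold change of 0.20 (SE 0.17, edgeR adjusted p = 0.653). For both genes the highest WT library was replicate 8, and for Sc5d it was the highest of all 11. Without WT replicate 8 the log2 fold changes were 0.36 (SE 0.12, edgeR adjusted p = 0.105) for Cyp51 and 0.35 (SE 0.13, edgeR adjusted p = 0.154) for Sc5d, and without dIEC replicate 3 they were 0.14 and 0.13. For Sc5d, leaving out dIEC replicates 6 and 11 in turn gave 0.30 and 0.12.

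The other 11 synthesis enzymes had log2 fold changes from -0.19 to 0.20, 10 of them above 0, with edgeR adjusted p from 0.621 to 0.986. Their 95% intervals reached down to -0.65 and up to 0.77, so the data leave room for differences of that size in single genes. The mevalonate arm lay close to 0, with Acat2, which joins acetyl-CoA units, at 0.046, mevalonate kinase (Mvk) at 0.024, phosphomevalonate kinase (Pmvk) at 0.014 and mevalonate diphosphate decarboxylase (Mvd) at 0.14. Without single libraries these 4 ran from -0.12 to 0.27. Squalene synthase (Fdft1) and lanosterol synthase (Lss) had 0.20 and 0.14, and the late enzymes Nsdhl, Ebp and Dhcr7, the reductase that ends one branch of the pathway, had 0.20, 0.16 and 0.15. Without WT replicate 8 Fdft1 had 0.33 (SE 0.12, edgeR adjusted p = 0.1195). Without dIEC replicate 3 Fdft1, Lss, Nsdhl and Ebp had 0.13, 0.041, 0.064 and 0.083, and without dIEC replicate 1 Lss and Dhcr7 had 0.23 and 0.29. Tm7sf2, a sterol reductase, was the single synthesis enzyme below 0, at -0.19 (SE 0.21), with 2.17 CPM in dIEC replicate 1 against 5.09 to 6.49 CPM in the other dIEC libraries and 5.25 to 6.79 CPM in WT. Without dIEC replicate 1 its log2 fold change was 0.0053. Fdps, farnesyl diphosphate synthase, had the lowest level of the 29 genes, 0.727 CPM per kb and 12 to 38 counts per library. Its log2 fold change was 0.20 (SE 0.27), and 0.30 (SE 0.27) without WT replicate 8. Of its exonic length 26.7% is shared with Gm43738 on the same strand, so its counts are uncertain, as are those of Fdft1, 18.3% of which overlaps Ctsb on the opposite strand, and Tm7sf2, 12.1% of which overlaps Vps51 on the same strand. The library kit keeps strand, but no source here says whether counting used it.

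Counted by library, the enzymes lay on both sides of their medians in both groups. In dIEC replicate 3 all 18 enzymes lay above their median over the 11 libraries, and 7 were at their highest. dIEC replicates 5 and 11 had 14 of 18 above it, dIEC replicate 6 had 8 and dIEC replicate 1 had 3. In WT replicate 8 there were 15 of 18, against 1 to 7 in the other 5 WT libraries. dIEC replicate 1 held the lowest value of 5 enzymes and WT replicate 2 of 7.

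**Figure D3:**
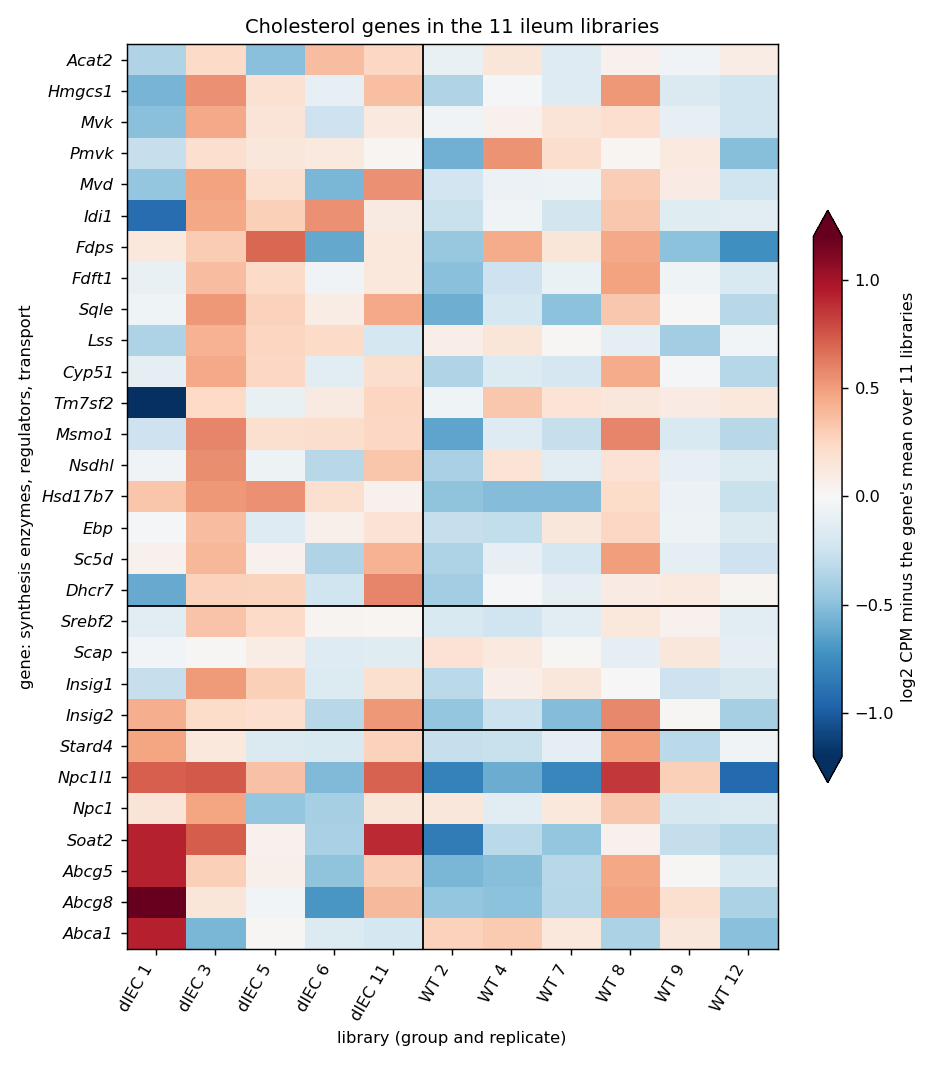
Log2 CPM of each gene minus its mean over the 11 libraries, dIEC columns left of WT columns. The dIEC replicate 3 and WT replicate 8 columns are high in most synthesis rows, and dIEC replicate 1 lies above the 11-library median in 7 of 7 transport rows and in 3 of 18 synthesis rows.

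The 4 regulators were expressed in every library, and none of the 4 passed the threshold. Srebf2, which encodes SREBP-2, had 72.2, 101, 93.1, 81.2 and 80.5 CPM in dIEC replicates 1, 3, 5, 6 and 11, against 66.9, 72.4 and 86.5 CPM as the lowest, median and highest of WT. Its log2 fold change was 0.19 (SE 0.11, interval -0.049 to 0.43, edgeR adjusted p = 0.535), and 0.12 without dIEC replicate 3. Scap had 19.1, 19.8, 20.8, 17.6 and 17.7 CPM in dIEC, against 18.1, 20.5 and 22.0 CPM in WT, with a log2 fold change of -0.088 (SE 0.095, interval -0.29 to 0.11, edgeR adjusted p = 0.742). The groups overlapped for both genes, with 2 dIEC libraries above the WT maximum for Srebf2 and 2 below the lowest for Scap. Of the exonic length of Scap 13.2% overlaps 5830462I19Rik on the opposite strand, so its counts are uncertain.

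Insig1, itself a target of SREBP in other tissues, had 22.8, 39.4, 33.8, 24.7 and 31.6 CPM in dIEC, against 22.1, 26.03 and 30.4 CPM in WT (log2 fold change 0.22, SE 0.14, edgeR adjusted p = 0.565, and 0.10 without dIEC replicate 3). In dIEC 3 libraries exceeded the WT maximum and 2 were below the WT median. Insig2, a related anchor protein, had 16.9, 14.6, 14.5, 9.97 and 18.0 CPM in dIEC, against 8.76, 9.996 and 18.7 CPM in WT (0.36, SE 0.20, edgeR adjusted p = 0.513, and 0.54, SE 0.16, adjusted p = 0.0749, without WT replicate 8). The ratio of Insig1 to Insig2 counts, which does not depend on library scaling, was 2.13 ± 0.555 in dIEC and 2.43 ± 0.703 in WT (exact permutation p = 0.489, adjusted p = 0.916 over 8 ratios). The ratio of Sqle to Srebf2 was 0.7103 ± 0.0848 in dIEC and 0.584 ± 0.0954 in WT, above the WT median in 5 of 5 dIEC libraries (exact permutation p = 0.0519, adjusted p = 0.416). That of Hmgcs1 to Srebf2 was 1.65 ± 0.335 in dIEC and 1.68 ± 0.298 in WT (exact permutation p = 0.877, adjusted p = 0.916), and that of Srebf2 to Insig1 was 2.86 ± 0.347 in dIEC and 2.91 ± 0.480 in WT (exact permutation p = 0.916, adjusted p = 0.916).

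Soat2 had the largest fold change of the 29 genes. It encodes the acyltransferase that esterifies cholesterol in enterocytes and lies on chromosome 15 (102150526 to 102163469, plus strand, GRCm38). It had 34.5, 30.2, 18.9, 13.9 and 33.8 CPM in dIEC replicates 1, 3, 5, 6 and 11, against 10.2, 14.5 and 18.8 CPM as the lowest, median and highest of WT. In dIEC 4 libraries exceeded the WT maximum, replicate 5 by a narrow margin, and dIEC replicate 6 lay below the WT median. The means were 26.3 ± 9.31 CPM in dIEC (SD, n = 5) and 14.3 ± 2.79 CPM in WT (SD, n = 6), a 1.84-fold difference. The log2 fold change was 0.88 (SE 0.22, 95% interval 0.41 to 1.35, edgeR adjusted p = 0.427). It was 0.97 (SE 0.23, adjusted p = 0.0491) without WT replicate 8 and 0.77 (SE 0.23, adjusted p = 0.639) without dIEC replicate 1.

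Npc1l1, the brush border cholesterol importer, had 159, 161, 124, 67.1 and 158 CPM in dIEC replicates 1, 3, 5, 6 and 11. In WT its lowest, median and highest values were 50.5, 60.04 and 174 CPM. All 5 dIEC libraries lay above the WT median, while the highest of all 11 was WT replicate 8. The log2 fold change was 0.63 (SE 0.35, interval -0.12 to 1.39, edgeR adjusted p = 0.512) and 0.96 (SE 0.29, adjusted p = 0.0958) without WT replicate 8. With 24.1 CPM per kb it had the second level per exonic length after Hmgcs1, followed by Stard4 with 19.1, Abcg5 with 12.02 and Srebf2 with 11.1, and whether neighbours in this order differ was not tested.

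Abcg5 and Abcg8 encode the paired subunits of a sterol exporter. Abcg5 had 59.0, 37.8, 32.4, 22.2 and 38.1 CPM in dIEC, against 21.1, 25.9 and 42.9 CPM as the lowest, median and highest of WT. Abcg8 had 71.7, 34.5, 30.3, 19.1 and 40.7 CPM in dIEC, against 22.2, 24.2 and 43.4 CPM in WT. Both were highest in dIEC replicate 1. Their log2 fold changes were 0.43 (SE 0.23, edgeR adjusted p = 0.498) and 0.46 (SE 0.30, edgeR adjusted p = 0.565), and 0.22 and 0.13 without dIEC replicate 1. The ratio of Abcg5 to Abcg8 counts was 1.02 ± 0.135 in dIEC and 0.989 ± 0.0855 in WT, and ran from 0.823 to 1.16 in dIEC and from 0.886 to 1.14 in WT (exact permutation p = 0.738, adjusted p = 0.916). The annotated exons of these genes overlap by 82 bases on opposite strands.

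**Figure D4:**
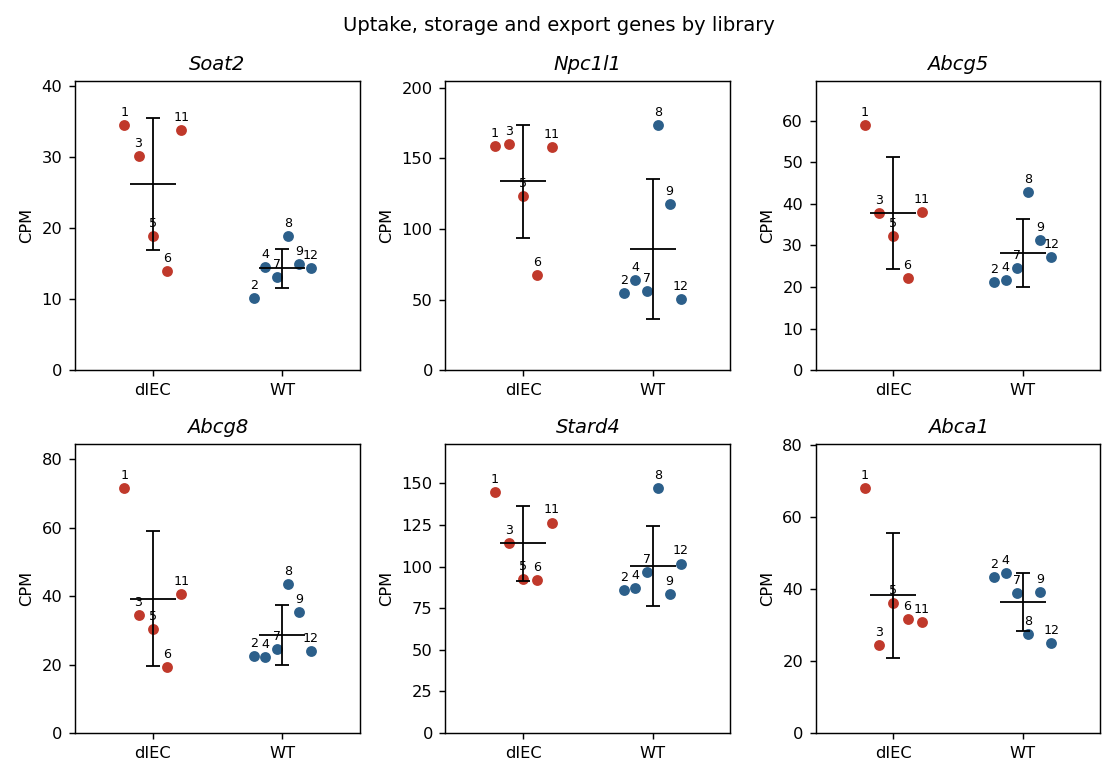
CPM of 6 uptake, storage, transport and export genes in each library, dIEC left and WT right, labelled by replicate, with group means and SD. dIEC replicate 1 is highest for Soat2, Abcg5, Abcg8 and Abca1, and WT replicate 8 for Npc1l1, at 174 CPM, and Stard4, at 147 CPM.

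Stard4, a carrier of cholesterol through the cytosol, had 145, 114, 92.7, 92.1 and 126 CPM in dIEC, against 83.6, 92.0 and 147 CPM in WT (log2 fold change 0.18, SE 0.17, edgeR adjusted p = 0.685). Its highest library was WT replicate 8 and the next dIEC replicate 1. The fold change was 0.32 (SE 0.13, edgeR adjusted p = 0.168) without WT replicate 8 and 0.084 (SE 0.17, edgeR adjusted p = 0.906) without dIEC replicate 1. Npc1, which moves cholesterol out of lysosomes, had 21.7, 26.9, 14.1, 14.7 and 21.4 CPM in dIEC, against 17.01, 19.5 and 24.3 CPM in WT, and lay at 0.012 (SE 0.16, interval -0.34 to 0.36, edgeR adjusted p = 0.986). Abca1, the exporter that loads cholesterol onto apolipoprotein A-I, had 68.2, 24.4, 36.0, 31.8 and 30.8 CPM in dIEC, against 25.1, 39.0 and 44.4 CPM in WT. A single dIEC library, replicate 1, lay above the WT median of Abca1, and it lay above all WT libraries. The log2 fold change of Abca1 was 0.069 (SE 0.24, edgeR adjusted p = 0.940), and -0.25 (SE 0.17, adjusted p = 0.699) without dIEC replicate 1. Without WT replicate 8 it was -0.00036 (SE 0.26).

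Ratios between transport genes were also set side by side. Abca1 to Npc1l1 was 0.308 ± 0.141 in dIEC and 0.527 ± 0.244 in WT, with 0 of 5 dIEC libraries above the WT median (exact permutation p = 0.171, adjusted p = 0.456). Npc1l1 to Abcg5 was 3.59 ± 0.690 in dIEC and 2.91 ± 0.851 in WT (exact permutation p = 0.167, adjusted p = 0.456). Soat2 to Npc1l1, storage over uptake, was 0.196 ± 0.0264 in dIEC and 0.195 ± 0.0676 in WT (exact permutation p = 0.764, adjusted p = 0.916). All 8 ratios tested overlapped between the groups.

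dIEC replicate 1 thus held the highest value of 4 of the 7 transport genes and the lowest value of 5 of the 18 synthesis enzymes. In dIEC replicate 6 none of the 7 transport genes lay above its median over the 11 libraries, against 7 of 7 in dIEC replicate 1, 6 in dIEC replicates 3 and 11, and 3 in dIEC replicate 5. The WT libraries had 6 of 7 in replicate 8 and 1 or 2 in the other 5. dIEC replicate 1 had 195 CPM of the proximal gut markers tested, against 11.5 to 65.5 CPM in the other 10 libraries. Apoa4 (134 CPM) and Creb3l3 (52.4 CPM) made up most of this sum. Of the other proximal gut markers tested, Gsta1 (5.78 CPM) and Fabp1 (2.75 CPM) were not highest in that library. dIEC replicate 1 also had the highest sum of macrophage markers of all libraries, 153 CPM, and the lowest sum of smooth muscle markers, 1461 CPM. Its sum of the 13 fatty acid genes described below was the lowest, 270.5 CPM.

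The libraries were also ordered by their sums of enterocyte markers. The 5 highest sums were in WT replicate 8 and dIEC replicates 1, 11, 3 and 5, and the same 5 libraries were the highest for Npc1l1, Soat2, Abcg5, Insig2 and Sc5d. For 14 further genes 4 of these 5 libraries were among the highest 5, for 9 genes 2 or 3 were, and for Abca1 1 was. The same count over all genes was not made. All of these 5 libraries but WT replicate 8 are dIEC, so a gene higher in dIEC would also tend to be high in them. The 19 enterocyte markers tested, of 20 listed (Slc2a2 was not tested), had a median log2 fold change of 0.70, all 19 above 0, with sums of 4529 to 11242 CPM in dIEC and 3036 to 12271 CPM in WT. The 16 epithelial markers had a median of 0.23, with sums of 3544 to 4720 CPM in dIEC and 2870 to 5070 CPM in WT, and the 12 fibroblast markers had -0.66, with 367 to 630 CPM in dIEC and 383 to 1183 CPM in WT. Markers of ileal position, among them the bile acid genes Fabp6 and Slc10a2, were detected in every library and summed to 487 to 933 CPM in dIEC and 289 to 889 CPM in WT. The 9 of 12 T cell markers tested had a median of 0.87 (37.3 to 78.2 CPM in dIEC, 17.9 to 43.1 CPM in WT), the 4 of 7 proximal gut markers tested 0.85 (18.7 to 195 CPM in dIEC, 11.5 to 62.3 CPM in WT) and macrophage markers -0.045 (80.8 to 153 CPM in dIEC, 54.6 to 148 CPM in WT). Proliferation markers had -0.23 (117 to 348 CPM in dIEC, 241 to 310.0 CPM in WT) and smooth muscle markers -0.37 (1461 to 3627 CPM in dIEC, 2590 to 5371 CPM in WT). In each of these 9 lists 0 genes passed edgeR's adjusted threshold. At an unadjusted p under 0.05 by edgeR, 4.87% of all genes lay higher in dIEC and 5.79% lower. Of the markers, 4 of 19 enterocyte, 1 of 16 epithelial, 3 of 6 ileal, 8 of 9 T cell and 2 of 4 proximal gut lay higher at that level. For fibroblast markers 9 of 12 lay lower. The part of these markers in the cholesterol genes' values was not tested.

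Other genes of sterol and lipid metabolism did not all lie on the same side. Among 7 further genes of sterol synthesis and its acetyl-CoA supply 2 lay above 0 (median -0.11). Acss2, which makes acetyl-CoA from acetate, averaged 13.8 ± 2.08 CPM in dIEC and 17.1 ± 1.45 CPM in WT (-0.31, SE 0.12, edgeR adjusted p = 0.428). Its unadjusted p was under 0.05.

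Of 17 further genes of sterol sensing 15 lay above 0 (median 0.16). Lpcat3, a phospholipid acyltransferase induced by LXR, the sterol-sensing nuclear receptor, had a log2 fold change of 0.39 (SE 0.16, edgeR adjusted p = 0.441) and Rnf145, a ubiquitin ligase of the endoplasmic reticulum, 0.29 (SE 0.13, edgeR adjusted p = 0.465). Smpdl3a, a phosphodiesterase, had the largest at 0.41 (SE 0.30, edgeR adjusted p = 0.606), with 63.3 CPM in dIEC replicate 1 against 25.2 to 31.1 CPM in the other dIEC libraries. Of 16 genes of lipoprotein uptake and intracellular traffic 8 lay above 0 (median 0.0047). Gramd1c, a sterol transfer protein, lay at 0.55 (SE 0.23, edgeR adjusted p = 0.443), and Scarb1, a lipoprotein receptor, at -0.53 (SE 0.22, edgeR adjusted p = 0.436), with 3.87 ± 0.510 CPM in dIEC and 5.55 ± 1.70 CPM in WT.

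Fatty acid synthesis and desaturation genes, which the related factor SREBP-1 controls, lay mostly below 0, in 11 of 13 cases (median -0.13), and summed to 270.5 to 448 CPM in dIEC and 320.2 to 455 CPM in WT. Fads1, a fatty acid desaturase, averaged 9.43 ± 2.37 CPM in dIEC and 13.7 ± 3.33 CPM in WT (log2 fold change -0.53, SE 0.19, edgeR adjusted p = 0.427). It was the only gene of the 13 with an unadjusted p under 0.05 by edgeR, where 5.79% of all genes lay lower at that level. In each of these 4 lists 0 genes passed edgeR's adjusted threshold, and whether the lists differ from each other was not tested.

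**Figure D5:**
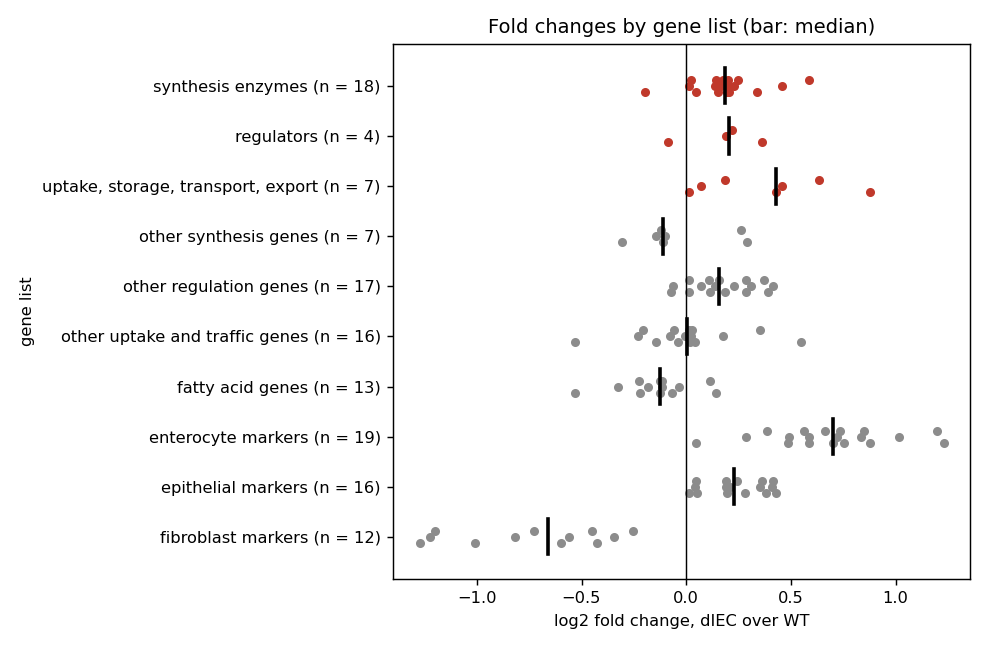
Log2 fold changes, dIEC over WT, of each gene by list, with the cholesterol genes in red, other lists in grey and a bar at the median. The medians of the cholesterol groups lie between 0.19 and 0.43, that of the fatty acid genes at -0.13 and that of the enterocyte markers at 0.70.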

How the data were processed

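RNA of 2 cm of the distal ileum was extracted and made into directional libraries, per the labels' protocols. The submitters' processing notes name TopHat2 and mm10. No source here names the counting tool or its strand setting. The authors deposited raw counts per gene for all 11 libraries in a single table, with no normalization. The row with no gene name held 0.00778 to 0.0147% of a library's counts and was left out.

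Counts were analysed with edgeR 4.0.16 in R 4.3.3: filterByExpr, TMM factors (0.746 to 1.26), the robust quasi-likelihood test of dIEC against WT, and Benjamini-Hochberg adjustment over 15911 genes at 0.05. CPM are counts per 1000000 scaled by these factors, and standard errors come from the fold change and F statistic. DESeq2 1.42.0, other scalings, filters and fits without each library were alternatives. Ratios were compared by a two-sided exact permutation test over all 462 group assignments. Positions and exonic lengths are from GENCODE M21 (GRCm38), where 99.2% of the 31168 named genes were found by symbol. Scripts were tested on simulated data.

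The genes and lists were chosen with earlier results of these data known. Each dIEC library's value and the WT lowest, median and highest were given for genes with an unadjusted p under 0.05, the 6 synthesis enzymes of highest CPM, and all regulators and transport genes. Other pathway genes were named at an unadjusted p under 0.05 or as the largest change of their list. A result that this rule would name is not reported here.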

Additional observations from a re-analysis of the deposited data

Results flagged for a closer look

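A library far from the rest of its group was found in 7 of 58 groups of values examined (29 genes in each of dIEC and WT). Chance gives about 1 in 20 for a single group. These groups share the same 11 libraries and are not independent, so their count cannot be weighed against that rate. For Abca1, dIEC replicate 1 had 68.2 CPM and the next dIEC library 36 CPM. The other 6 were WT replicate 8. It had 186 CPM of Hmgcs1, where the next WT library had 128 CPM, and 38 CPM of Idi1, where the next had 29.5 CPM. It had 63.4 CPM of Cyp51, next 45.8 CPM, and 54.8 CPM of Msmo1, next 32.7 CPM. It had 41 CPM of Sc5d, next 27.1 CPM, and 147 CPM of Stard4, next 102 CPM. WT replicate 8 also had the highest sum of enterocyte markers of the 11 libraries, and the part of these markers in the values was not tested.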

How the results depend on the processing

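DESeq2 called 11 genes and edgeR with library size alone 2, against 1 in the fit reported, with 0 of the 29 in each. With library size alone 16 of the 29 lay above 0 and the synthesis median was -0.0059, while the median of all genes was -0.22. There Acat2 (-0.15), Mvk (-0.17), Pmvk (-0.22), Mvd (-0.032), Fdps (-0.024), Lss (-0.077), Ebp (-0.027), Dhcr7 (-0.038), Srebf2 (-0.010), Npc1 (-0.16) and Abca1 (-0.21) changed sign. Leaving out both WT replicate 8 and dIEC replicate 1, chosen after seeing the data, gave 7 genes called, 14 of the 29 at an unadjusted p under 0.05, and sign changes of Tm7sf2 (0.0062) and Abca1 (-0.32). Leaving out 1 library at a time gave 1 to 319 genes called, 0 to 3 of the 29 called, 3 to 12 at an unadjusted p under 0.05, 23 to 27 above 0, a synthesis median of 0.095 to 0.28 and a median of the others of 0.17 to 0.32. The highest counts of calls were without WT replicate 8. Signs then changed for Acat2 (-0.043 to 0.14), Mvk (-0.12 to 0.13), Pmvk (-0.076 to 0.14), Tm7sf2 (-0.29 to 0.0053), Npc1 (-0.13 to 0.11) and Abca1 (-0.25 to 0.20), and for the log2 ratios Abcg5 to Abcg8 (-0.018 to 0.11), Srebf2 to Insig1 (-0.079 to 0.045), Hmgcs1 to Srebf2 (-0.12 to 0.075) and Soat2 to Npc1l1 (-0.074 to 0.20). Of the 29, 17 kept their sign under all 19 alternatives. The cause of these changes was not tested. No paired analysis was possible because no replicate number occurs in both groups. Fdps, with 12 to 38 counts per library, has the fewest counts of the 29.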
